A study of Drosophila melanogaster with 23 samples.

Results

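Messenger RNA of adult males of Canton S, a common laboratory stock of Drosophila melanogaster, was compared directly with that of Zimbabwe30, a strain named for Zimbabwe, on 2 spotted 2-colour cDNA microarrays. These were chosen, from 23 arrays and 8 strains in all, because their channel labels carry exactly this pair. Replicate 1 had Canton S in channel 1 and Zimbabwe30 in channel 2, and replicate 2 had the channels exchanged. Both strains were reared on standard medium at 25 °C without a light and dark cycle, and the males were kept apart from females and aged for 3 to 4 days. The labels name no mutation, transgene or treatment for either strain. Total RNA came from whole flies, 8 to 12 at a time, and all extractions of a strain were merged into 1 pool. The 2 arrays are therefore technical repeats of 1 comparison, and every p-value below covers the spread between arrays only, not between flies, vials or rearings.

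Strains of a species differ in the transcript levels of many genes, through variants near a gene that act on its own copy and through variants elsewhere that act on many genes. In insects, genes of detoxification, digestion, cuticle and immunity are well known for such variation. Cytochromes P450, glutathione S-transferases and UDP-glycosyltransferases act on foreign compounds in successive phases. In D. melanogaster, populations from southern Africa are close to the species' ancestral range, whereas long-kept laboratory stocks trace to flies collected elsewhere.

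A 2-colour array gives, for each spotted cDNA, the ratio of the strains and no level of either. The deposited values are log ratios whose base and numerator are not stated. They were read as log10, converted to log2, centred on the median of each array, and those of replicate 2 were turned. A positive value below thus means a log ratio above the array median with Canton S in channel 1 and below it with Zimbabwe30 in channel 1. If channel 1 is the numerator, positive means more transcript in Canton S, and if channel 2 is, it means less. The direction is not settled, so genes are placed on the positive or the negative side and no strain is called higher. Any fold is a size, and it rests on the reading as log10.

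Of 6101 features, 4886 gave a value on replicate 1 and 4948 on replicate 2, and 4835 (79.2%) gave a value on both. A single gene symbol was available for 1508 of these features, which stood for 1410 genes. Another 54 had several symbols and 3273 had none here, and these were counted but not named. Before turning, the arrays were anticorrelated across features (r = -0.53), which is the sign that exchanged channels give when ratios run in 1 fixed channel order. After turning, the rank correlation was 0.28, and 2756 features (57.0%) lay on the same side on both arrays. The SD over features was 0.39 on replicate 1 and 0.35 on replicate 2 on the log2 scale. On arrays that carried the same strain in both channels it was 0.17 for Canton S and 0.14 for Zimbabwe53. Features past 1.5-fold made up 8.66% and 6.73% of the arrays of the pair, against 1.27% and 0.617% on those same-strain arrays.

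Most genes differed little between the strains. The median size of the difference over the 1410 genes was 0.13 on the log2 scale, or 1.10-fold, and the 95th percentile was 1.42-fold. The gap between the 2 arrays, divided by 2, had a median size of 0.11 over the same genes. A typical difference was thus close in size to the disagreement between the arrays. By a size rule of at least 1.5-fold on the mean, with both arrays on the same side, 230 of 4835 features were called (4.76%). Of these, 106 were positive (2.19%) and 124 negative (2.56%). The positive share of the calls was 46.1%, against 38.2% with each print block centred on its own median. All 230 features whose mean passed 1.5-fold had both arrays on the same side. Among named genes, 50 of 1410 were called (3.55%), with 25 on each side (1.77% and 1.77%). Only 7 genes reached 2-fold (0.496%), 3 reached 3-fold and 2 reached 4-fold. Here and in the order of genes below, each gene is taken by 1 representative feature. Further features of sowah (3.35-fold) and Fhos (a mean of 1.13) also passed 2-fold. Over all features, named or not, 72 reached 2-fold (1.49%), 9 of them named, and 14 reached 4-fold, 2 of them named. The 3 that reached 8-fold carried no symbol here. The rule has no test behind it, and the genes just inside it differed little from those just outside. The smallest called differences were those of CG15293 (1.51-fold), Nepl21 (1.52-fold) and SLC5A11 (1.52-fold), while nSyb, CG10863 and yps fell just short, at 0.58, -0.58 and 0.57 on the log2 scale.

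**Figure D1:**
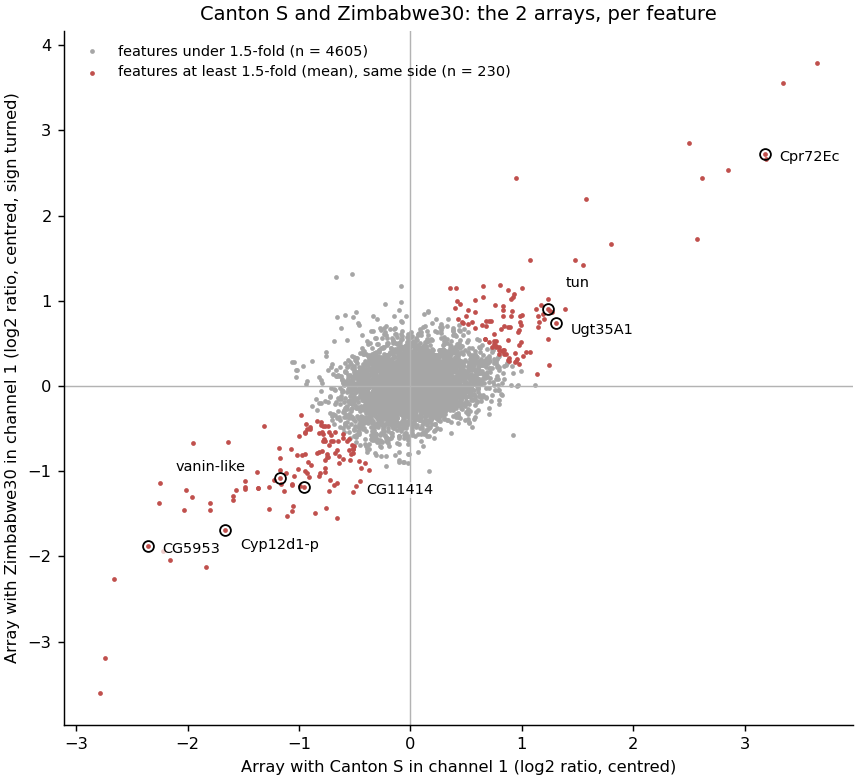
Each point is 1 of 4835 features, with its centred log2 ratio on replicate 1 (x axis) and on replicate 2 after turning (y axis), and red points are the 230 features of at least 1.5-fold. The red points lie in the corners where both arrays have the same sign, and 7 labelled genes, all past 2-fold, lie from Cpr72Ec at the upper right to CG5953 at the lower left.

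Cpr72Ec, on chromosome arm 3L, showed the largest difference of all named genes. It encodes a cuticular protein with a chitin-binding domain, of the family that builds the insect cuticle together with chitin. Its log2 ratio was 3.18 on replicate 1 and 2.73 on replicate 2, a mean of 2.95 or 7.75-fold. Both arrays were far on the positive side, and the gap between them was small beside the mean. The second gene was CG5953 on 2L, at -2.36 and -1.88, a mean of -2.12 or 4.35-fold. Both arrays placed it on the negative side.

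By representative features, the third gene was Cyp12d1-p on 2R. It encodes a cytochrome P450 of the mitochondrial group that has been tied to insecticide metabolism in flies. It stood at -1.66 and -1.70, a mean of -1.68 or 3.20-fold, and both arrays gave nearly the same value. Some genomes of the species carry a nearly identical neighbouring copy, which a spotted cDNA cannot tell from this gene, so the value may hold both. The fourth was vanin-like on the X, related to the vertebrate vanins, which hydrolyse pantetheine. It gave -1.17 and -1.08, a mean of -1.13 or 2.18-fold on the negative side.

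The remaining genes whose representative feature passed 2-fold were tun, CG11414 and Ugt35A1. On the positive side, tun on 2R gave 1.23 and 0.91, and a further feature of the gene gave a mean of 0.91. Ugt35A1 on 3R, a UDP-glycosyltransferase that joins sugars to small lipophilic molecules, gave 1.31 and 0.74. Its 2 arrays lay further apart than those of most of the leading genes. CG11414 on 2R gave -0.95 and -1.19, a mean of -1.07, on the negative side.

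Of the 25 named genes with the largest differences, 12 were positive and 13 negative, with means down to 0.74 in size for Fhos. The next on the positive side was Gem2 on 3L, a component of the SMN complex that assembles small nuclear ribonucleoproteins, at 1.14 and 0.82. Arc1 on 2R, a capsid-forming protein descended from a retrotransposon Gag gene and active in neurons, gave 0.98 and 0.82. The gut serine protease gene yip7 on 3L gave 1.23 and 0.55, both positive but well apart. A transporter of the major facilitator superfamily, rtet on 3R, gave 0.83 and 0.93. Fhos on 3L, a formin that organises actin filaments, gave 0.72 and 0.77, and its further feature had a mean of 1.13. The genes CG9297, CG11841, CG3548 and CG32444, had no described role here and were positive too, with means of 0.98, 0.91, 0.87 and 0.75.

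On the negative side, GstE12 on 2R, a glutathione S-transferase of the epsilon class, gave -0.68 and -1.17. The phosphoserine phosphatase gene aay on 3L, whose product makes serine, gave -0.97 and -0.81. The BMP ligand gene dpp on 2L gave -0.95 and -0.80, and its further feature had a mean of -0.68. All 3 lay on the negative side on both arrays. The DJ-1 homologue dj-1beta on 3R, linked to resistance against oxidative stress, gave -0.49 and -1.18. Prosbeta4R2 on 2L, a testis relative of a proteasome core subunit, gave -0.996 and -0.588. Cbs on the X, cystathionine beta-synthase of the transsulphuration pathway, gave -0.74 and -0.83, values close to each other. The diacylglycerol acyltransferase gene mdy on 2L, which makes storage fat, gave -0.64 and -0.90, and sip1 on 2L gave -0.75 and -0.83. CG14642 on 3R gave -0.51 and -1.24, both negative but well apart. The other 25 called genes ran from 1.51-fold to 1.66-fold, 13 positive and 12 negative.

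**Figure D2:**
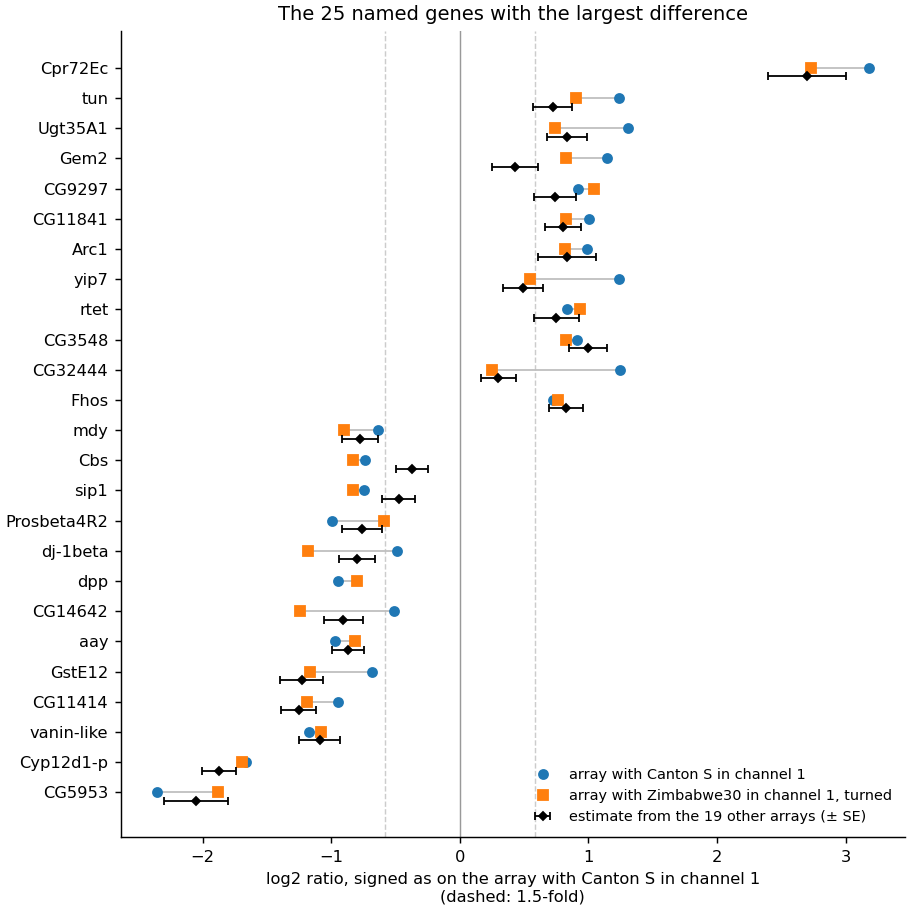
The 25 named genes with the largest differences, with the log2 ratio on replicate 1 (circles), on replicate 2 after turning (squares), and the estimate from the 19 other arrays of different strains (diamonds, bars are SE). Both arrays lie on the same side of 0 for each gene, from -2.36 for CG5953 to 3.18 for Cpr72Ec, and dpp has no diamond because the other arrays gave no estimate.

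Since the pair alone has no replicate spread, its difference was also taken from a fit of strain levels to all 21 arrays of different strains. That fit, made with limma, averaged the arrays to 13 pairs of strains and borrowed the spread from all of them. Its adjusted p (Benjamini-Hochberg) was under 0.05 for 749 of 4841 features (15.5%), 358 positive (7.4%) and 391 negative (8.08%). Among named genes the count was 177 of 1371 (12.9%), of which 86 were positive (6.27%) and 91 negative (6.64%). These differences were modest: the median fold of the 177 genes was 1.36, the lowest was 1.19, 40 genes reached 1.5-fold and 6 reached 2-fold. Of the 50 genes called by size, 49 could be tested and 46 passed, as did all 25 of the largest. These passes are no separate support, because the fit holds the same 2 arrays by which the genes were chosen. Leaving out replicate 2 of the pair lowered the count to 447 features and 103 genes, while leaving out replicate 1 gave 750 and 188.

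The smallest adjusted p among named genes was that of Cyp12d1-p, with a fitted difference of -1.76 ± 0.09 (SE) on the log2 scale and adjusted p = 1.15e-08 by limma. Cpr72Ec followed, at 2.85 ± 0.18 (SE, limma adjusted p = 1.36e-07), then CG5953 at -2.10 ± 0.16 (SE, limma adjusted p = 7.99e-07). The other 2 of the 5 lowest were CG11414 (limma adjusted p = 1.43e-06) and vanin-like (limma adjusted p = 3.42e-06). Among the 25 largest, the highest adjusted p was 0.00284 by limma, for CG32444, whose arrays gave 1.246 and 0.252.

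The same difference can be estimated without the 2 arrays of the pair, through chains of strains compared on the other 19 arrays. Among these, Zimbabwe30 was compared only with Zimbabwe53, on 2 arrays, and with St Louis, on 1 array. Of those partners, only Zimbabwe53 was also compared directly with Canton S. The array of St Louis and Zimbabwe30 shares its title, but for the last letter, with replicate 2 of the pair. Arrays with such a shared title stem were correlated (consensus correlation 0.466), so this estimate may not be wholly separate from the pair. The 19 arrays used the same RNA pools as the pair, so they bear on hybridisation and spotting, not on flies. Their estimate was less precise, with a median SE of 0.15 against 0.10 for the full fit, and it called 401 of 4667 features (8.59%). Across 4513 features, the direct mean and this estimate had r = 0.72 and a rank correlation of 0.49, given as a description. Of 219 features called by size, 214 lay on the same side in the other arrays, and the median sizes were 0.82 and 0.82. Over all 1321 genes with both estimates, most of them with small differences, 824 (62.4%) lay on the same side. Of the 48 called genes with both estimates, 47 lay on the same side and 29 passed the test there. A test of the pair's own value against that of the other arrays passed for 2 of 4832 features (0.0414%) at a limma adjusted p under 0.05, and 7.78% had an unadjusted p under 0.05.

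For Cpr72Ec the other arrays gave 2.70 ± 0.30 (SE), for CG5953 -2.05 ± 0.25 (SE) and for Cyp12d1-p -1.87 ± 0.13 (SE), all close to the direct means. Of the 25 largest genes, 24 could be tested there and 20 passed. The 4 that did not were Gem2 (0.43, limma adjusted p = 0.162), yip7 (0.49, limma adjusted p = 0.0718), Cbs (-0.37, limma adjusted p = 0.0850) and CG32444 (0.30, limma adjusted p = 0.215). All 4 kept the side of the direct value, at a smaller size.

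**Figure D3:**
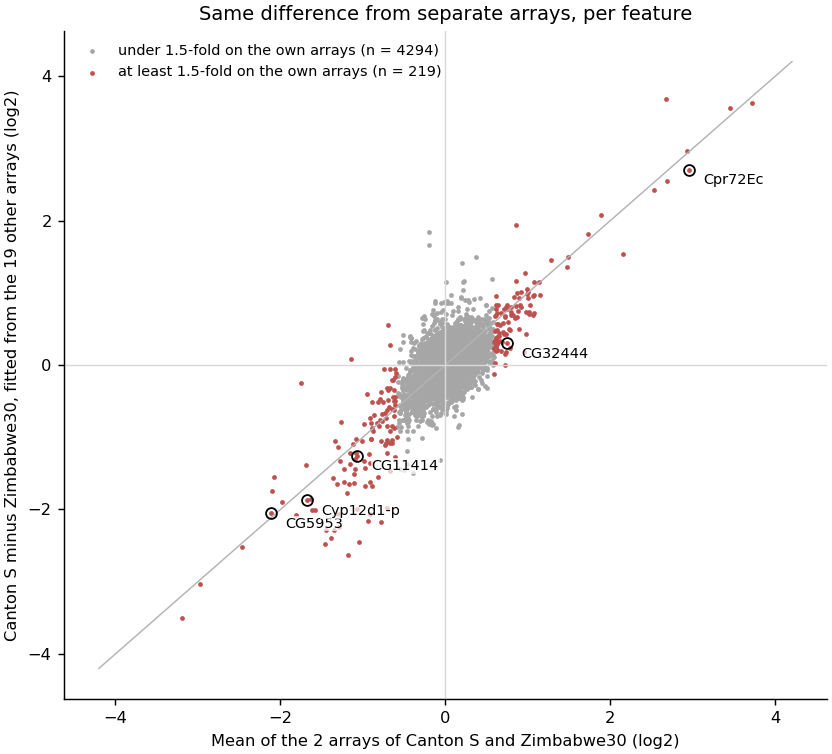
Mean log2 ratio of the 2 arrays of Canton S and Zimbabwe30 (x axis) against the same difference fitted from the 19 other arrays (y axis) for 4513 features, with the line of equality. The 219 red features, at least 1.5-fold on the pair's own arrays, follow the line with 214 on the same side, and CG32444 is labelled as a gene with a smaller value in the other arrays.

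The fit also shows which of these differences lie on the Zimbabwe30 side of the other strains and which on the Canton S side. All contrasts with Zimbabwe30 share its values, so they are set side by side and not counted as separate support. Over all features, these contrasts passed for 16.2% with Zimbabwe53, 6.96% with Zimbabwe29, 3.82% with Zimbabwe2, 13.7% with Oregon R, 12.7% with Hikone R and 13.7% with St Louis. Of these strains, only Zimbabwe53 and St Louis shared arrays with Zimbabwe30, and the others were linked to it through other strains. The contrasts therefore differed in precision, and their shares do not rank the strains by distance from Zimbabwe30. CG11414 and GstE12 set Zimbabwe30 apart from all 7 other strains. For CG11414, the fitted difference from Zimbabwe30 was -1.14 for Canton S and between -1.03 and -0.73 for the 6 others, each past the test (limma adjusted p from 7.56e-06 to 0.00353). For GstE12 it was -1.04 for Canton S and between -1.41 and -0.72 for the others (limma adjusted p from 3.38e-05 to 0.00196). In both genes, all strains other than Zimbabwe30 lay on the negative side of it.

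Cpr72Ec was also past the test against Zimbabwe30 in all 6 other strains, but spread over a wide range. The difference from Zimbabwe30 was 3.99 for St Louis, 3.18 for Oregon R, 2.85 for Canton S, 1.88 for Zimbabwe29, 1.23 for Zimbabwe2, 0.91 for Hikone R and 0.87 for Zimbabwe53. Zimbabwe30 thus stood at one end of the range of the 8 strains and 2 strains, St Louis and Oregon R, lay beyond Canton S. Canton S and Oregon R did not differ past the test (0.33, limma adjusted p = 0.413).

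The gene rtet showed the reverse layout, with Canton S apart. The difference from Canton S was -0.83 for Zimbabwe30 and between -1.38 and -0.76 for the 6 other strains, all past the test (limma adjusted p from 5.69e-06 to 0.00560). Against Zimbabwe30, only St Louis of those 6 was past it (-0.56, limma adjusted p = 0.0139). For vanin-like, Canton S shared its side with Oregon R. Both lay below Zimbabwe30 on the fitted scale, by -1.12 and -1.01, and the difference between them was 0.11 (limma adjusted p = 0.629), whereas St Louis lay on the opposite side at 1.34.

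For Cyp12d1-p, Canton S lay next to St Louis, at -1.76 and -1.69 from Zimbabwe30, and Oregon R lay next to Zimbabwe30 at 0.11 (limma adjusted p = 0.561). CG5953 ran from 0.24 for Zimbabwe29 and 0.11 for Zimbabwe2, neither past the test against Zimbabwe30, through -1.20 for Zimbabwe53 and -2.10 for Canton S, to -4.44 for Hikone R and -4.89 for St Louis. Canton S was not at an end of this range, whereas Zimbabwe30 lay near its positive end, beside Zimbabwe29 and Zimbabwe2. Arc1 differed from Zimbabwe30 past the test in all strains but Zimbabwe2 (0.31, limma adjusted p = 0.373). The values that passed ran from 0.48 for St Louis to 1.21 for Zimbabwe53.

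**Figure D4:**
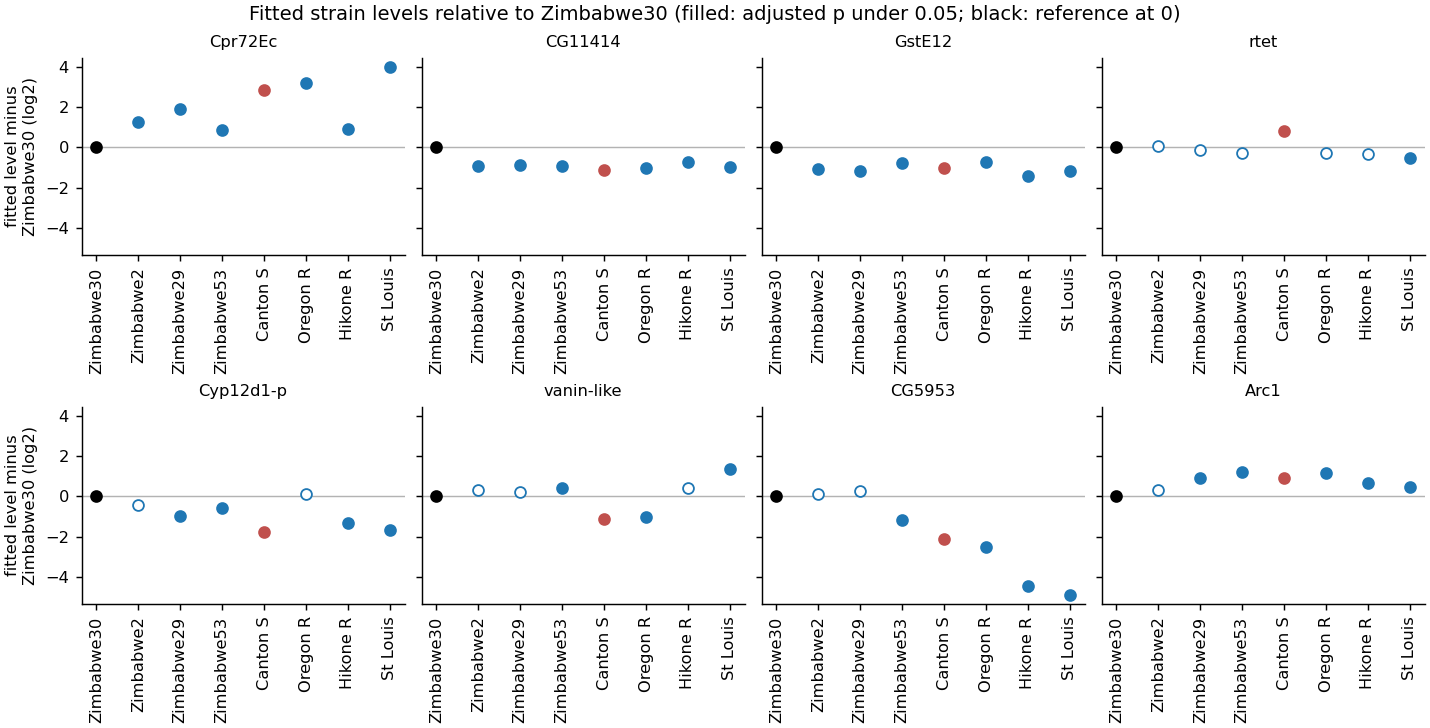
Fitted log2 difference of each strain from Zimbabwe30 (black, at 0) for 8 genes, with Canton S in red and filled symbols where the limma adjusted p is under 0.05. All 7 symbols are filled for Cpr72Ec, CG11414 and GstE12, and only Canton S and St Louis are filled for rtet.

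The gene lists below were described by their counts, beside 12.9% of named genes past the fit and a median size of 0.13. Detoxification had 9 measured genes, 1 of them past the fit on the positive side (Ugt35A1) and 2 on the negative side (Cyp12d1-p and GstE12). The median size of the 9 genes was 0.31. The other 6 did not pass, among them Cyp4ac1, another P450, at -0.38 and -0.24 (limma adjusted p = 0.0604), and GstE13, at 0.62 and 0.08 (limma adjusted p = 0.558). The genes of this list thus lay on both sides, and 3 of the 9 means were positive.

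Of 5 cuticle genes, Cpr72Ec alone passed. The 4 others, Cht7 (a chitinase), Cpr49Ac, Lcp65Ag3 and TwdlW, had means from 0.08 to 0.29, with limma adjusted p from 0.219 to 0.989. Both digestive genes measured were positive and past the fit. They were yip7 and mag, a lipase of the gut, which gave 0.66 and 0.25 (limma adjusted p = 0.00381). The call of mag was lost without the dye offset and without the pair's own arrays.

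Sugar metabolism had 4 measured genes, 2 of which passed on the positive side. Glyp, glycogen phosphorylase, which frees glucose units from glycogen, gave 1.13 and 0.14 (limma adjusted p = 0.00265). Most of its mean came from replicate 1, and the other arrays gave 0.32 (limma adjusted p = 0.157). Treh, trehalase, which splits the blood sugar trehalose, gave 0.51 and 0.17 (limma adjusted p = 0.0304), and 8 alternative settings lost its call, among them leaving out either array of the pair, St Louis and Zimbabwe30, or 1 array of Zimbabwe53 with Canton S or Zimbabwe30. Pfk, phosphofructokinase, gave -0.32 on both arrays, yet the fit gave -0.10 and the other arrays 0.20 (limma adjusted p = 0.386). The fourth, fbp, fructose-1,6-bisphosphatase of gluconeogenesis, had a mean of 0.18.

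Among 6 mitochondrial genes, Got2, a mitochondrial aspartate aminotransferase, passed on the negative side at -0.51 and -0.71 (limma adjusted p = 0.00079). The other 5, of respiration and the citric acid cycle among other steps, had means from -0.07 to 0.36. Of 6 lipid genes, Fatp1, which takes up fatty acids, passed at -0.19 and -0.40 (limma adjusted p = 0.0327), but 9 settings lost its call, among them leaving out either array of the pair, St Louis and Zimbabwe30, or 1 array of Canton S with Zimbabwe29, Hikone R or Zimbabwe2. FASN1, the fatty acid synthase, gave -0.16 and -0.22, and bmm, the main fat body lipase, gave 0.20 and 0.13. Neither passed the fit.

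Testis genes, which are expected in whole males, included 6 measured members, and Prosbeta4R2 alone passed. The others, among them the sperm-related genes janB and ocn and the germline chaperonin Hsp60B, had means from -0.22 to 0.20. No accessory gland gene and no ovary or yolk gene of the lists was among the named features, so these tissues could not be checked. Of 4 muscle genes, Prm, paramyosin of the thick filament, passed on the positive side at 0.40 and 0.46 (limma adjusted p = 0.00723), a call lost without the pair's own arrays (limma adjusted p = 0.0841). The other 3, among them troponin T (up), did not. None of 3 eye genes and none of 5 proteasome genes passed the limma fit at an adjusted p under 0.05, and the sizes of their means were at most 0.20 and 0.15. Galphaq, a G protein subunit of the light response, gave -0.26 and 0.65, on opposite sides, and its further feature had a mean of 0.45.

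Of 4 ribosomal protein genes, RpL32 and RpS10a passed on the negative side, with means of -0.37 and -0.47. The arrays of RpS10a gave -0.74 and -0.19, and its call was lost without the pair's own arrays (-0.30, limma adjusted p = 0.165). RpS12 passed on the positive side at a limma adjusted p = 0.0485, although its arrays gave -0.01 and 0.49, on opposite sides. For RpS12, 19 settings, among them leaving out replicate 2 of the pair and most other arrays in turn, lost this call. Of 2 clock genes, Pdp1, an activator of the clock loop, passed at 0.56 and 0.32 (limma adjusted p = 0.00489), a call lost without the pair's own arrays (limma adjusted p = 0.111). The other, cwo, a repressor of the loop, gave -0.01 and 0.40 without passing. The 4 chaperone genes stayed within 0.22 of 0, and none passed the limma fit. Obp19d, an odorant-binding protein, gave 0.05 and 0.16. Fewer cells of a type and less RNA per cell cannot be told apart in whole flies.

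A last list held 20 genes chosen earlier in these same arrays for their range among the 8 strains, so its count is not independent. Of its 19 genes measured on both arrays, 13 passed the fit, 7 positive and 6 negative. The genes of this list not yet named that passed were CG4757 (-0.94 and -0.45), CG13325 (-0.84 and -0.42) and Mipp1 (0.33 and 0.50), an inositol phosphate phosphatase. The other arrays gave -0.34 for CG4757, smaller than its mean of -0.70, and its call was lost there (limma adjusted p = 0.158). Without replicate 2 of the pair, Mipp1 just missed the test (limma adjusted p = 0.0520). For CG4757, Canton S and Zimbabwe30 lay in the middle of the strains: Zimbabwe53 differed from Zimbabwe30 by 1.94 and St Louis by -1.55. The 6 that did not pass were CG12129, NT5E-2, sphe, Gem3, cDIP and Sqor, with means from -0.11 to 0.24. Of these, Sqor missed narrowly (limma adjusted p = 0.0535), and 7 alternative settings called it.

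**Figure D5:**
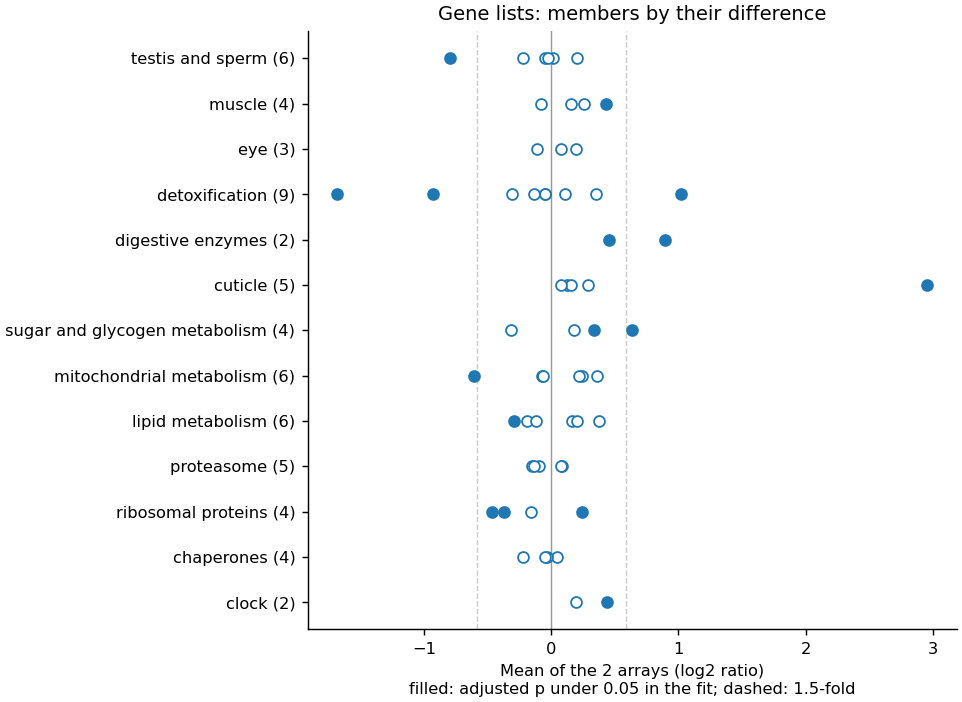
Mean log2 ratio of the 2 arrays for each measured gene of 13 lists with at least 2 members (number of genes in brackets), filled where the limma adjusted p is under 0.05, with dashed lines at 1.5-fold. Most genes lie within the dashed lines, Cpr72Ec lies far to the right at 2.95, and the detoxification genes spread from -1.68 to 1.02.

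Several genes had more than 1 feature, which may be the same or different cDNA clones. Of 69 such genes, 40 had all features on 1 side, and the median range between features of a gene was 0.16. RpL32, the most often spotted, had 12 features with means from -0.44 to 0.10, of which 11 were negative and 4 passed the fit. The sperm-related janB had 8 features from -0.02 to 0.38, 1 of which passed. The neighbouring gene ocn had 9 features from -0.12 to 0.27, and none of its 9 passed the limma fit. The widest disagreement among features with a call was in sowah, picked out after its values were seen. Its first feature gave -0.39 and -0.07, and its second gave -2.03 and -1.46. The second passed the fit (-1.27 ± 0.22 SE, limma adjusted p = 0.00137) while the 19 other arrays gave -0.25 ± 0.27 (SE).

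The genes in which the arrays of the pair disagreed most included Imp, CG11357 and mav, beside CG32444. Imp, an RNA-binding protein, gave -0.63 and 0.68, and mav, a TGF-beta ligand, gave -0.30 and 0.79. CG11357 gave -0.47 and 0.74. In Imp, CG11357 and mav, replicate 1 was negative and replicate 2 positive, so their means, from 0.03 to 0.24, hide opposite signs. None of these 3 genes passed the limma fit of all strains. Further features of Imp had means of 0.12 and -0.28, on opposite sides, and did not pass that fit either. Without the pair's own arrays, the representative feature of Imp passed at 0.86 (limma adjusted p = 0.0389). CG11357 passed there at -0.56 (limma adjusted p = 0.0351), on the side opposite to its direct mean of 0.13. The estimate for mav there was 0.54 (limma adjusted p = 0.247).

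Called genes were spread over the chromosome arms. By size, the X had 6 of 258 genes (2.33%), while 2R had 12 of 256 (4.69%), 2L 11 of 242 (4.55%), 3L 11 of 286 (3.85%) and 3R 10 of 352 (2.84%). In the fit, 9.72% of X genes and 16.7% of 2L genes passed, the lowest and the highest share among the 5 large arms, and this difference was not tested. The median size was 0.12 on the X and 0.14 on 2L. Of 192 pairs of neighbouring genes that were both measured, 99 lay on the same side. In a single pair both passed the fit: gukh and CG6005, picked out after their values were seen, lay on opposite sides at -0.40 and 0.52.

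Calls by size were not evenly placed on the array. Feature numbers were read as print block, row and column. The last 2 grid rows, rows 19 and 20, held 123 of the features measured on both arrays, 45 of them with a gene name, and 35 of the 230 calls. Among the 72 features of at least 2-fold, 20 lay in these rows, and all 20 were negative. Without these rows, 195 features were called by size, and the positive share of the calls was 54.4% against 46.1% with them. The 20 features had a median of -1.29 on the pair's own arrays and -2.004 in the other arrays.

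Set beside the other pairs compared with exchanged channels, Canton S and Zimbabwe30 were among those with a smaller spread of log2 ratios. The SD of the mean log2 ratio over features was 0.32, lower than in 5 of the 7 other pairs, between 0.25 for Canton S and Oregon R and 0.47 for St Louis and Zimbabwe53. Features of at least 1.5-fold on the same side made up 4.76%, against 2.37% and 9.11% in those pairs. The pairs were measured on different sets of 3108 to 4835 features and the order was not tested. The SD also holds noise of the arrays, and r between the turned arrays of a pair ran from 0.285 to 0.809. In the fit, the share of features past the test against Zimbabwe30 was 15.5% for Canton S and 16.2% for Zimbabwe53. Zimbabwe30 and Zimbabwe53, which share their origin by name, had an SD of 0.27, and Canton S and Zimbabwe53 had 0.39.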

How the data were processed

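The authors hybridised cDNA of 2 strains per array with cyanine 3 and cyanine 5, per the labels' protocols. Not given in the sources used here are the scanner, spot filter, normalization and log base. The deposited log10 ratios, so read because the largest size of 1.56 would otherwise be a small ratio, form 1 table with a column for each array, and no spot intensity was used, so signal over background is unknown and precision is limited by how many arrays there are. Values were converted to log2 ratios, which the authors did not deposit, and the median of every array was subtracted. Arrays that share the stem of their title were tried as a random block.

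The direct difference is the mean of the 2 turned arrays, called at 1.5-fold with both on the same side, without a test. For the fit of all strains, a dye offset per feature from 8 channel-exchanged pairs was subtracted, arrays were averaged to 13 pairs weighted by their number, and strain levels were fitted with limma 3.58.1 in R 4.3.3. Features needed at least 10 of the 13 pairs, all 8 strains estimable and 3 complete exchanged pairs. Calls used a Benjamini-Hochberg adjusted p below 0.05. Of the 21 arrays, 11 carried Canton S and 5 carried Zimbabwe30. The fit was also run on simulated data. Their noise was independent on every array, so that run cannot show the effect of the correlation between arrays with the same title stem. Gene names came from the platform annotation (1943 features with 1 symbol, 67 with several, 4091 with none). The Release 6 gene table held the Entrez identifier of all 1943 and gave arms and neighbours only.

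Named genes were the 25 largest by direct size, all measured members of the gene lists, the 5 lowest adjusted p and the 5 largest gaps between the arrays, 1 of which is not reported here. A gene with repeated features was represented by that with values on most arrays. The pair, the lists and the rules were chosen with earlier results of these data known. List patterns that had caught genes of other families (Cyp1, Droj2, EloA and Osi14) were corrected by gene identity after the files were read. Alternatives changed the centring, scaling, dye term, weights, filters and thresholds, and left out arrays in turn.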

Additional observations from a re-analysis of the deposited data

Results flagged for a closer look

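A test for a difference between the 2 arrays of Canton S and Zimbabwe30 and the other arrays, added after the data were seen, passed a limma adjusted p of 0.05 in 2 of 4832 features (0.0414%), and 376 (7.78%) had an unadjusted p under 0.05. The only named one was Osi14, of the Osiris family, which lies outside the rule for named genes and was picked out after its values were seen. Its arrays gave -0.21 and -0.23, and the pair's own value differed from that of the other arrays by -1.57 ± 0.21 (SE, limma adjusted p = 0.0287). The other feature carried no name here. Its own arrays gave -0.56 and 0.23, on opposite sides, and it differed from the other arrays by -1.80 ± 0.23 (SE, limma adjusted p = 0.0287). Neither passed the fit for Canton S against Zimbabwe30. Neither met the filters of the fit without the pair's own arrays, so the flagged differences could not be set beside an estimate from that fit.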

How the results depend on the processing

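The direct count of 230 features was 72 at 2-fold, 143 when each array had to pass 1.5-fold by itself, and 15 if the deposited values are log2. With 1 array alone it was 324 (without replicate 1) to 418 (without replicate 2). The fit's count of 749 features was 349 over features complete on all 21 arrays, where fewer were tested, 401 without both arrays of the pair, and 217 with a fitted difference of at least 1.5-fold. Leaving out 1 array at a time gave 447 to 860, the lowest without replicate 2 of Canton S and Zimbabwe30. The 177 named genes became 98, 89 and, leaving out 1 array, 103 to 217, the lowest without the same array, and the cause was not tested. Of the 91 selected genes followed singly, none reversed its sign while called. Of the 25 largest genes, 21 passed under every alternative that could be run for them, and the other 4 lost their call only without both arrays of the pair. Of the 38 of these 91 genes past the threshold, 24 passed under every alternative, and 13 lost their call without both arrays of the pair. Without the last 2 grid rows, added after the data were seen, 701 features passed. No paired analysis was possible because replicate numbers follow accession order and mark no shared culture or day. With arrays of the same title stem as a random block (consensus correlation 0.466), 692 features and 165 genes passed. Intensities were not used, so differences of weakly hybridising spots cannot be told from strong ones.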
